A study of Mus musculus with 20 samples.

Results

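The type I interferon-stimulated genes described here are 29 protein-coding mouse genes, given by name: the transcription factors Irf7, Irf9 and Stat2, the ISG15 system (Isg15, Usp18, Herc6), the RNA helicases Ddx58, Ifih1 and Dhx58, Ifit1 to Ifit3, 5 genes of the OAS family (Oas1a, Oas2, Oas3, Oasl1, Oasl2), Mx1 and Mx2, 5 further antiviral effectors (Rsad2, Cmpk2, Bst2, Trim30a, Zbp1) and 5 further induced genes (Ifi44, Ifi35, Xaf1, Rtp4, Parp14). All 29 of the 29 were found by symbol among 23090 counted genes, and all 29 passed the filter on low counts in every comparison. Poly-A RNA had been counted in 20 libraries of myeloid cells sorted from tumours, in 4 groups of 5. Every animal was a female SCID.beige mouse of 6 to 8 weeks, a strain without T cells, B cells or normal NK cell function, bearing an implanted tumour of MDA.MB.231-X1.1 (a human breast cancer derivative) or CT26 (a mouse colon carcinoma). The labels do not say which tumour a library came from or which libraries share a mouse, so tumour lines cannot be told apart within or between groups, and the spread between libraries may be partly technical. Once tumours measured 150 to 200 mm3, mice received vehicle (MCT) or GNE-781 at 25 mg/kg BID by oral gavage for 7 days. GNE-781, labelled CBPi-781 and here CBPi, occupies the bromodomain of the acetyltransferases CBP and EP300. Both sorted populations were CD45+, CD11b+, Ly6C+ and F4-80-; the monocytic population (mMDSC) was Ly6G- and the granulocytic population (gMDSC) Ly6G+. The groups were vehicle mMDSC 1 to 5, CBPi mMDSC 6 to 10, vehicle gMDSC 1 to 5 and CBPi gMDSC 6 to 10.

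Type I interferons (the interferon-alpha family and interferon-beta) bind the receptor formed by IFNAR1 and IFNAR2, which activates the kinases JAK1 and TYK2. These phosphorylate STAT2, which with IRF9 takes part in the complex ISGF3. ISGF3 binds the interferon-stimulated response element, a repeat of GAAA, in the promoters of genes that restrict viral RNA, translation and budding, and CBP and EP300 are known coactivators of such promoters. In resting myeloid cells, tonic interferon signalling is known to keep many of these genes on at a low level.

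The promoters were examined because the members moved together in part. RefSeq windows of 300 bases (250 before and 50 after the annotated start, GRCm38.p6) existed for 21 of the 29 members; Usp18, Dhx58, Oas2, Mx1, Mx2, Zbp1, Rtp4 and Parp14 had none in the table. The search looked for GAAANNGAAA on either strand (TTTCNNTTTC on the other), where N is any base and matches may overlap each other. It was found in 11 of the 21 members (52.4%) and in 1079 of 27025 genes with a window (3.99%). The members were picked by name as interferon-stimulated genes, so their higher share follows in part from that choice and is a description only. The 5 windows printed below, without the bases after the start, belong to the 3 members with the smallest p among those called higher under CBPi in mMDSC and with a window (Oasl2, Ifit1, Irf9) and to the 2 members with the largest p there (Ifi35, Isg15). Capitals mark the matches, and each sequence runs 5′ to 3′ along the gene.
Oasl2 promoter, chr5:114896684-114896933, plus strand: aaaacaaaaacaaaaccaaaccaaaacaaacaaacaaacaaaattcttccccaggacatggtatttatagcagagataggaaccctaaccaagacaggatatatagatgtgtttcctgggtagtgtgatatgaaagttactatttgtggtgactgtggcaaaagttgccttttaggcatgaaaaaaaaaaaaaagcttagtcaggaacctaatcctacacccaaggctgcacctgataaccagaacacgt
Ifit1 promoter, chr19:34640639-34640888, plus strand: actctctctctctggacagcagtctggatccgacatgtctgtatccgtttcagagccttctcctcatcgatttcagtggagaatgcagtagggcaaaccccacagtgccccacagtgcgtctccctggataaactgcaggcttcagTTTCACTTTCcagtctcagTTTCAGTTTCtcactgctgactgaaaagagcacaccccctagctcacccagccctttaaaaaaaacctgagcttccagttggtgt
Irf9 promoter, chr14:55603735-55603984, plus strand: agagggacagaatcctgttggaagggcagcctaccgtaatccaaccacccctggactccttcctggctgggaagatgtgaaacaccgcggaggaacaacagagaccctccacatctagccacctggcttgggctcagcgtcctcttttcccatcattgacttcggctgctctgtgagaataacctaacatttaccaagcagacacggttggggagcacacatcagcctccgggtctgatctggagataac
Ifi35 promoter, chr11:101448162-101448411, plus strand: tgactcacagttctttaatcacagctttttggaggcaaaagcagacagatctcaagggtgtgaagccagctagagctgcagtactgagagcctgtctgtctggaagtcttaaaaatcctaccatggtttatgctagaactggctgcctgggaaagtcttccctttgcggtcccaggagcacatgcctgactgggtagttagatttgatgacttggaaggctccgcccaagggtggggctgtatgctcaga
Isg15 promoter, chr4:156200819-156201068, minus strand: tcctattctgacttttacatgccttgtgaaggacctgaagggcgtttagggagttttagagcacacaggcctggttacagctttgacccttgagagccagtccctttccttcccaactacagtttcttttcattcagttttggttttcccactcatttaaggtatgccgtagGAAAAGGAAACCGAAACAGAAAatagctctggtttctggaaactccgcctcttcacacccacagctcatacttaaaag
The Ifit1 window held 2 matches, which begin 104 and 85 bases before the start, and the Isg15 window held 3 overlapping matches from 78 bases before the start. The windows of Oasl2, Irf9 and Ifi35 held no match to these letters. Among members with a window, a match was present in 2 of the 7 called higher under CBPi in mMDSC and in 9 of the 14 not called. In gMDSC it was present in 4 of the 6 called higher and in 7 of the 15 not called.

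Library totals ran from 12.37 to 26.64 M counts (M, mega), and every member had a mean of at least 33.8 CPM in each group (counts relative to the library total in M, scaled by TMM over the 20 libraries). The sorted populations carried their markers only in part. Neutrophil markers (16 genes) summed to 14112 to 47107 CPM in vehicle gMDSC and 492 to 690 CPM in vehicle mMDSC, with Cxcr2 at 1428 ± 371 and 1.28 ± 0.946 CPM (SD, n = 5), but Ly6g, the gene of the sorted antigen Ly6G, reached no more than 9.2 CPM in any gMDSC library. Macrophage markers (10 genes, Apoe and C1qa among them) were high in both gates, at 33804 to 76846 CPM in vehicle gMDSC and 22538 to 32235 CPM in vehicle mMDSC, and Adgre1, which encodes F4/80, averaged 1038 ± 321 and 839 ± 90.8 CPM. Of the 9 plasmacytoid dendritic cell markers, 6 stayed under 5 CPM in every library. Under CBPi in gMDSC the neutrophil sum was 14407 to 27234 CPM, with 4 of 14 tested markers lower, and the macrophage sum 16630 to 31788 CPM, with 2 of 10 lower. In mMDSC 4 of 10 macrophage markers were lower under CBPi and 1 higher, and 5 of 12 monocyte markers were lower and 1 higher. In gMDSC 5 of 12 monocyte markers were lower and 2 higher. The part of these shifts in the member results was not tested.

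Summed over the 29 members, expression was lowest in vehicle mMDSC and highest in CBPi gMDSC. In mMDSC the sum was 12993, 14267, 15636, 16231 and 14824 CPM with vehicle and 17768, 19534, 16933, 19056 and 18648 CPM under CBPi, in the order of the library numbers, as in all lists of values here. Every CBPi library of mMDSC exceeded every vehicle library. In gMDSC it was 32458, 18789, 25798, 24234 and 17308 CPM with vehicle. Under CBPi the gMDSC sum was 46058, 42221, 29215, 26975 and 30455 CPM, so that CBPi gMDSC 6 and 7 stood above the rest and vehicle gMDSC 1 lay within the CBPi range. In a bulk library, more RNA per cell and more cells that express these genes cannot be told apart.

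**Figure D1:**
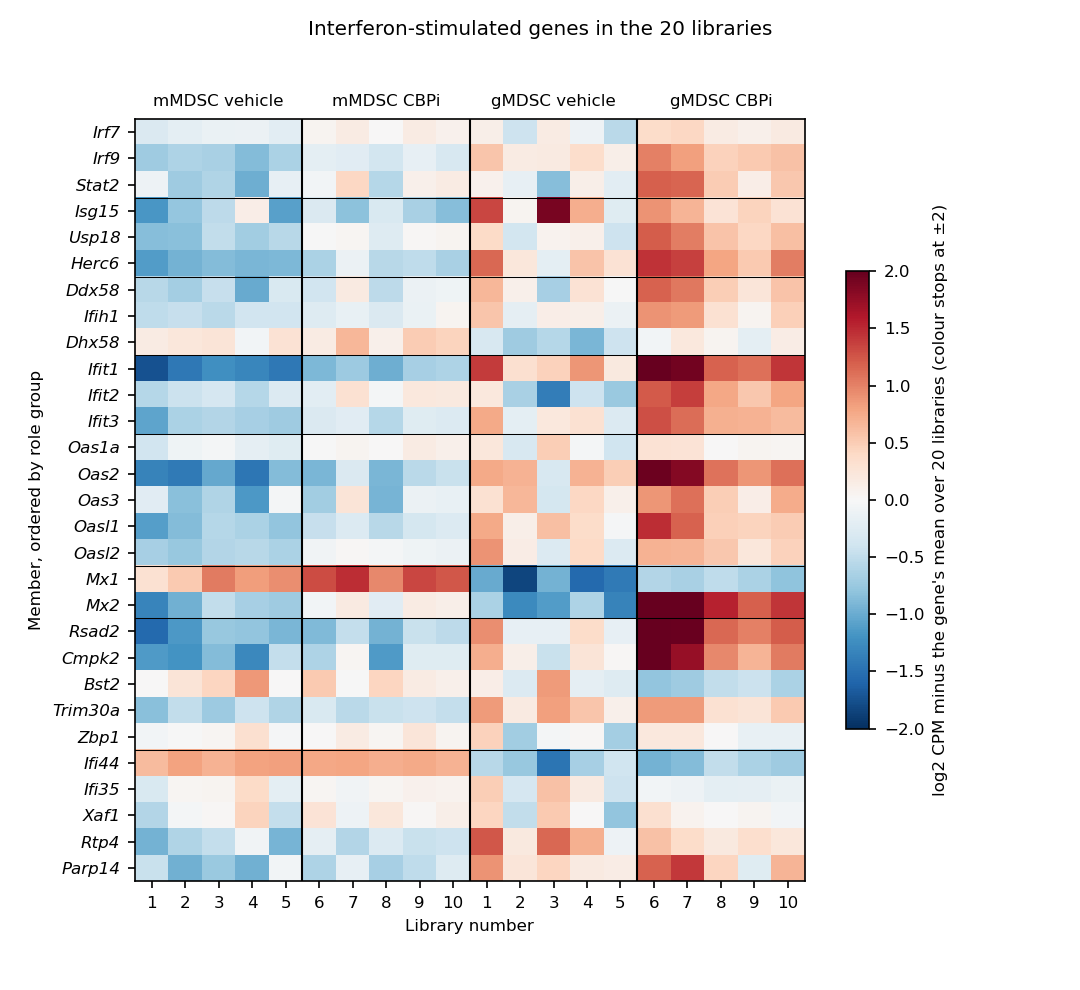
Heat map of the 29 members (rows, grouped by role) in the 20 libraries (columns), coloured by log2 CPM minus the gene's mean over all libraries, with the colour stopping at ±2. CBPi gMDSC 6 and 7 are the reddest columns, and Mx1 and Ifi44 run opposite to most members by being higher in mMDSC.

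Levels between genes were compared on the authors' RPKM values, which divide by gene width. In vehicle mMDSC, Irf7 (1510 ± 80.8 RPKM, SD, n = 5) and Isg15 (1170 ± 338 RPKM) led, and their ranges overlapped. Bst2 (558 ± 89.8 RPKM) came next, apart from Isg15, and Parp14 (24 ± 8.39 RPKM) was last. In vehicle gMDSC, Isg15 (2441 ± 1035 RPKM) was above Irf7 (1141 ± 82.1 RPKM) without overlap, followed by Rtp4, Ifit1 and Rsad2, each of which overlapped its neighbour in that order. Mx1 (9.65 ± 1.42 RPKM) was the lowest member in vehicle gMDSC and did not overlap Mx2 (21.6 ± 4.72 RPKM), the next above it. Under CBPi, Mx2 stood at 158 ± 43.1 RPKM in gMDSC, rank 20 of 29.

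CBPi was first compared with vehicle within mMDSC, to ask how these genes differed in that sorted population between treated and vehicle mice. Of the 29 members, 10 were higher and 0 lower (edgeR quasi-likelihood test, adjusted p under 0.05 after Benjamini-Hochberg adjustment over 11912 genes): Irf7, Irf9, Usp18, Herc6, Ifit1, Ifit2, Ifit3, Oas2, Oasl2 and Mx2. Over all genes tested, 3.02% were called higher and 5.54% lower. The median member log2 fold change was 0.36, against 0.01 for all genes, and 27 of 29 were above 0, with a range of -0.11 to 0.84. In 12 members every CBPi library was above every vehicle library, as in 4.2% of all genes. By an unadjusted p under 0.05, which 22.4% of all genes had in either direction, 18 members were higher and 0 lower, and DESeq2 called 13 higher and 0 lower. The number called was 6 without vehicle mMDSC 1 or 2 or CBPi mMDSC 7 or 9, and a fit of all 20 libraries called 3 (Irf9, Usp18 and Mx2).

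In gMDSC, 11 of 29 members were higher under CBPi and 0 lower: Stat2, Usp18, Dhx58, Ifit1, Ifit2, Ifit3, Oas2, Mx1, Mx2, Rsad2 and Cmpk2. Over all 11694 genes, 4.18% were called higher and 5.52% lower. The median member log2 fold change was 0.47, against 0.00 for all genes, and the range of -0.69 to 2.89 was wider than in mMDSC. In 8 members all CBPi libraries lay above all vehicle libraries (4.94% of all genes), and in 1, Bst2, all lay below. By an unadjusted p under 0.05 (25.9% of all genes, both directions), 17 were higher and 1 lower, and DESeq2 and the fit of all 20 libraries each called that 1 member, Bst2, lower. Without CBPi gMDSC 7, 4 members were called (Ifit2, Mx2, Rsad2 and Cmpk2); 6 were called without CBPi gMDSC 6 or vehicle gMDSC 4, and 7 without vehicle gMDSC 5. Called in both cell types were 6 members (Ifit1, Ifit2, Ifit3, Mx2, Oas2 and Usp18), or 60% of the mMDSC calls and 54.5% of the gMDSC calls, and edgeR called 14 members in neither. DESeq2 called 4 of these 14, Ifih1 and Oasl1 higher in mMDSC, Ddx58 higher and Bst2 lower in gMDSC. The 2 comparisons share no library. Pearson's r of their log2 fold changes over the 29 members was 0.82, a description across genes, which are not independent replicates. Mx2 had the largest change in both comparisons. Over the members, both sets of changes also correlated with the log2 of gene width (r = 0.36 in mMDSC and 0.43 in gMDSC).

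**Figure D2:**
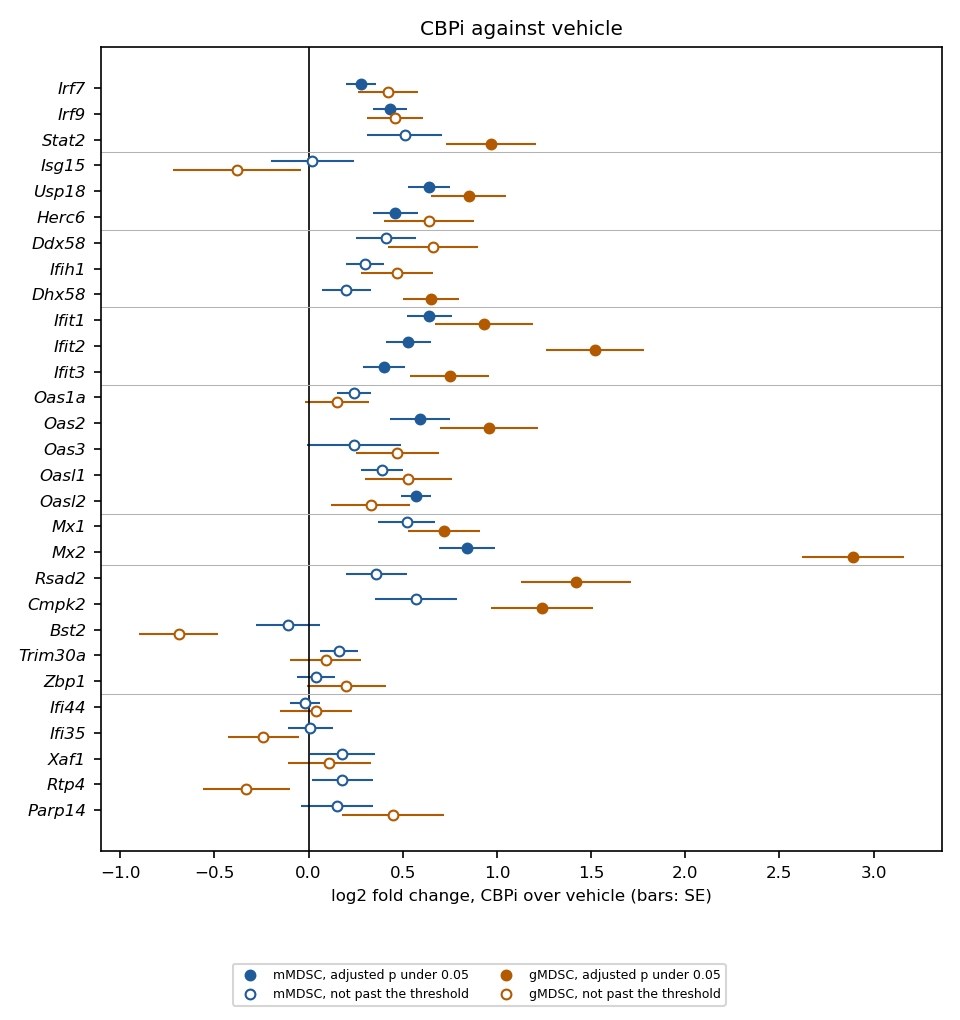
log2 fold change of CBPi over vehicle (x axis, bars SE) for the 29 members (y axis) in mMDSC and gMDSC, with filled points for adjusted p under 0.05. Mx2 in gMDSC, at 2.89, is the farthest point, and Isg15, Bst2, Ifi35 and Rtp4 in gMDSC lie below 0 without passing the threshold.

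Among the transcription factors, Irf9, the DNA-binding subunit of ISGF3, rose in mMDSC. Its level there was 138, 147, 143, 123 and 145 CPM with vehicle and 196, 192, 175, 200 and 180 CPM under CBPi. The groups were separate, each with a narrow spread, and the log2 fold change was 0.43 ± 0.09 (SE; edgeR adjusted p = 0.0132). In gMDSC, Irf9 was 329, 253, 255, 286 and 243 CPM with vehicle and 451, 399, 311, 323 and 337 CPM under CBPi. Vehicle gMDSC 1 overlapped the CBPi libraries, and the log2 fold change of 0.46 ± 0.15 did not pass the test (edgeR adjusted p = 0.0704). DESeq2 and the fit of all 20 libraries did call Irf9 in gMDSC. In the main fit alone, Stat2, the ISGF3 subunit that carries its activation domain, showed the reverse pattern of calls. It was 433, 362, 227, 442 and 353 CPM in vehicle gMDSC and 931, 909, 577, 445 and 594 CPM in CBPi gMDSC. All CBPi libraries were above all vehicle libraries, CBPi gMDSC 9 only just, and Stat2 rose by 0.97 ± 0.24 (edgeR adjusted p = 0.0224), a call lost without CBPi gMDSC 6 (adjusted p = 0.0579) or CBPi gMDSC 7 (adjusted p = 0.0678). In mMDSC, Stat2 was 379, 250, 268, 208 and 365 CPM with vehicle and 392, 542, 276, 438 and 456 CPM under CBPi. These groups overlapped in CBPi mMDSC 8, and the log2 fold change was 0.51 ± 0.20 (edgeR adjusted p = 0.151). With the adjustment for gene width described below, Stat2 was called in mMDSC (edgeR adjusted p = 0.0287).

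Irf7, which drives the amplifying wave of interferon-alpha genes, was the member with the most CPM in vehicle mMDSC. It was 2961, 3144, 3299, 3337 and 3108 CPM in vehicle mMDSC and 3765, 4059, 3624, 4038 and 3819 CPM in CBPi mMDSC. The ranges did not meet, but the change was small, at 0.28 ± 0.08 log2 (edgeR adjusted p = 0.0427). That call was lost without vehicle mMDSC 1, 2, 3 or 5 or CBPi mMDSC 7, 9 or 10, with adjusted p up to 0.103. In gMDSC, Irf7 was 3930, 2705, 4052, 3369 and 2470 CPM with vehicle and 4635, 4798, 4057, 3886 and 4087 CPM under CBPi. Vehicle gMDSC 1 and 3 reached the CBPi range, and the log2 fold change was 0.42 ± 0.16 (edgeR adjusted p = 0.126). The fit of all 20 libraries called Irf7 in gMDSC.

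In the ISG15 system, Usp18, the protease that removes ISG15 from proteins and restrains the interferon receptor, rose in both cell types. In mMDSC it was 462, 468, 591, 512 and 565 CPM with vehicle and 824, 854, 695, 848 and 861 CPM under CBPi. The lowest CBPi library, number 8, was still above every vehicle library, and the log2 fold change was 0.64 ± 0.11 (edgeR adjusted p = 0.0025). In gMDSC, Usp18 was 1090, 646, 876, 892 and 628 CPM with vehicle and 1921, 1684, 1237, 1110 and 1259 CPM under CBPi. The groups did not overlap, and the log2 fold change was 0.85 ± 0.20 (edgeR adjusted p = 0.0184; 0.0546 without CBPi gMDSC 7). Herc6, the mouse ligase that attaches ISG15, rose by 0.46 ± 0.12 in mMDSC, from 254 to 304 CPM in vehicle libraries to 353 to 512 CPM (edgeR adjusted p = 0.0344), a call lost without vehicle mMDSC 1, 2, 3 or 5 or CBPi mMDSC 7 or 9 (adjusted p up to 0.0819). In gMDSC the Herc6 difference was 0.64 ± 0.24 (edgeR adjusted p = 0.117). Herc6 was called there without vehicle gMDSC 1, and also by the fit of all 20 libraries. Isg15, the ubiquitin-like modifier, passed the test in neither. In mMDSC, Isg15 was 606, 791, 945, 1478 and 637 CPM with vehicle and 1104, 764, 1091, 864 and 749 CPM under CBPi. The groups overlapped around a log2 fold change of 0.02 ± 0.22 (edgeR adjusted p = 0.966), whose sign changed as single libraries were left out. In gMDSC, Isg15 was 3411, 1406, 5041, 2244 and 1150 CPM with vehicle and 2513, 2176, 1633, 1839 and 1663 CPM under CBPi. Vehicle gMDSC 3 was the highest of all libraries, and the log2 fold change of -0.38 ± 0.34 (edgeR adjusted p = 0.509) became -0.02 without it.

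Of the cytoplasmic RNA helicases, edgeR called 1, in gMDSC. Dhx58 (LGP2), which tunes signalling by the other helicases, was 236, 179, 198, 156 and 219 CPM in vehicle gMDSC and 283, 338, 305, 257 and 324 CPM in CBPi gMDSC. CBPi libraries all exceeded vehicle libraries, and Dhx58 rose by 0.65 ± 0.15 (edgeR adjusted p = 0.0186), a call lost without vehicle gMDSC 4 (adjusted p = 0.0507) or CBPi gMDSC 7 (adjusted p = 0.0564). Ddx58, which encodes the sensor RIG-I, and Ifih1, which encodes MDA5, had log2 fold changes of 0.66 ± 0.24 and 0.47 ± 0.19 in gMDSC (edgeR adjusted p = 0.104 and 0.142). In mMDSC the 3 helicases lay between 0.20 and 0.41, none past the threshold by edgeR. DESeq2 also called Ddx58 in gMDSC and Ifih1 in mMDSC; upper-quartile scaling called Ifih1, and the width adjustment Ddx58, in mMDSC.

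The IFIT genes, which lie together on chromosome 19 and encode proteins that bind foreign RNA ends and block translation, were the family in which all 3 members rose in both cell types. Ifit1 (chr19:34640889-34650009) was 412, 515, 593, 558 and 513 CPM in vehicle mMDSC and 745, 837, 699, 874 and 899 CPM in CBPi mMDSC. No CBPi value reached down to the vehicle range, and the log2 fold change was 0.64 ± 0.12 (edgeR adjusted p = 0.0048). In gMDSC, Ifit1 was 3632, 1726, 1913, 2553 and 1580 CPM with vehicle and 5902, 5268, 3143, 2978 and 3744 CPM under CBPi. Vehicle gMDSC 1 overlapped the lower CBPi libraries. The log2 fold change was 0.93 ± 0.26 (edgeR adjusted p = 0.0383), and it was called in 3 of 10 fits with a library left out, failing without vehicle gMDSC 2, 3, 4 or 5 or CBPi gMDSC 6, 7 or 10 (adjusted p up to 0.106). Ifit2 (chr19:34550550-34576534) had the largest IFIT change. It was 1285, 708, 427, 839 and 666 CPM in vehicle gMDSC and 2594, 2906, 1899, 1613 and 1913 CPM in CBPi gMDSC. The groups were apart and Ifit2 rose by 1.52 ± 0.26, or 2.88-fold (edgeR adjusted p = 0.00383). In mMDSC its rise was 0.53 ± 0.12 (edgeR adjusted p = 0.0147), with vehicle libraries at 746 to 923 CPM and CBPi libraries at 963 to 1375 CPM. Ifit3 rose by 0.40 ± 0.11 in mMDSC and 0.75 ± 0.21 in gMDSC (edgeR adjusted p = 0.0486 and 0.0383). In mMDSC the call failed without vehicle mMDSC 1, 2, 3 or 5 or CBPi mMDSC 6, 7, 9 or 10 (adjusted p up to 0.109), and in gMDSC without vehicle gMDSC 2, 4 or 5 or CBPi gMDSC 6, 7, 8 or 10 (adjusted p up to 0.103). Ifit3 has a near-identical neighbour, Ifit3b, and how the counting split reads between them is not given in the sources used here. Ifit3b, which is not a member, was called in neither cell type. Its log2 fold change was 0.24 ± 0.15 in mMDSC and 0.45 ± 0.21 in gMDSC (edgeR adjusted p = 0.382 and 0.193).

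**Figure D3:**
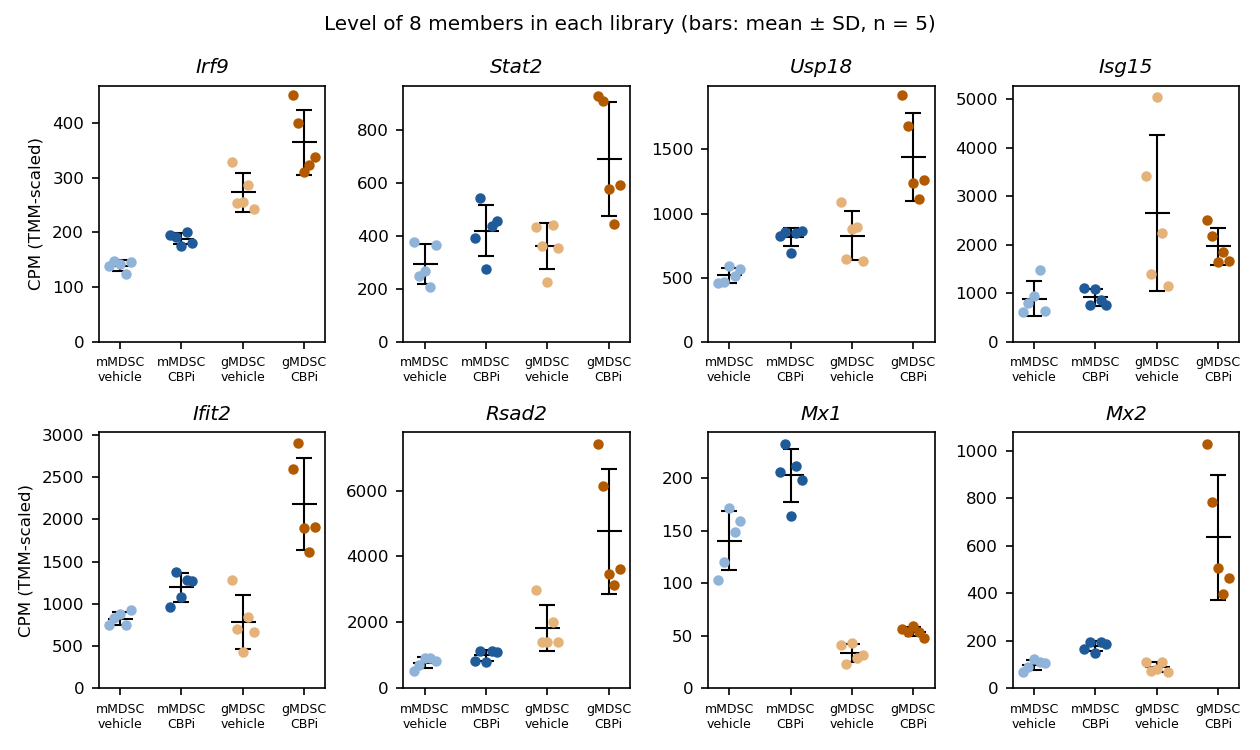
CPM of 8 members (1 panel each, y axis from 0) in each library of the 4 groups, with black bars for the mean ± SD (n = 5). Mx2 in CBPi gMDSC, at 397 to 1028 CPM, lies above every other library, while Isg15 in vehicle gMDSC spreads from 1150 to 5041 CPM.

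OAS enzymes make the messenger that activates RNase L, an activity that Oasl1 lacks. Oasl2 had the smallest p of all members in mMDSC. It was 456, 429, 482, 490 and 468 CPM with vehicle and 688, 737, 704, 680 and 666 CPM under CBPi. These were tight, separate groups, and the log2 fold change was 0.57 ± 0.08 (edgeR adjusted p = 0.00122). In gMDSC, Oasl2 was 1341, 797, 598, 957 and 595 CPM with vehicle and 1174, 1157, 1051, 844 and 990 CPM under CBPi. Vehicle gMDSC 1 was the highest of the 10, and the log2 fold change was 0.33 ± 0.21 (edgeR adjusted p = 0.357). Oas2 rose in both: by 0.59 ± 0.16 in mMDSC (129 to 193 CPM with vehicle, 186 to 287 CPM under CBPi, edgeR adjusted p = 0.0423) and by 0.96 ± 0.26 in gMDSC (282 to 594 and 645 to 1362 CPM, edgeR adjusted p = 0.0329). The mMDSC call was lost without vehicle mMDSC 1, 2, 3 or 4 or CBPi mMDSC 7, 9 or 10 (adjusted p up to 0.108), and the gMDSC call without vehicle gMDSC 1, 4 or 5 or CBPi gMDSC 6 or 7 (adjusted p up to 0.0962). Oasl1, which has been described as a repressor of Irf7 translation, was separate between the mMDSC groups but missed the threshold (0.39 ± 0.11, edgeR adjusted p = 0.054). It was called by DESeq2, by limma-voom, with RLE or upper-quartile scaling, and without vehicle mMDSC 3 or 4 or CBPi mMDSC 8. Oas1a and Oas3 passed in neither cell type, with log2 fold changes of 0.24 for both in mMDSC and 0.15 and 0.47 in gMDSC. Oas1a belongs to a set of close paralogues, so its counts are uncertain in the same way as those of Ifit3.

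The CBPi response of Mx2 differed most between the cell types. Mx1 and Mx2 are neighbouring genes on chromosome 16, from a family of dynamin-like GTPases known for antiviral activity. Where functional, mouse Mx1 acts in the nucleus and Mx2 in the cytoplasm. Whether the alleles of these mice encode functional proteins was not examined. Mx2 (chr16:97536081-97560901) was 69.3, 88.6, 123, 109 and 105 CPM in vehicle mMDSC and 167, 195, 148, 193 and 187 CPM in CBPi mMDSC. CBPi libraries were all higher, with a log2 fold change of 0.84 ± 0.15, or 1.79-fold (edgeR adjusted p = 0.00488). In gMDSC, Mx2 was 111, 71.5, 79.7, 112 and 68.5 CPM with vehicle and 1028, 782, 504, 397 and 466 CPM under CBPi. Vehicle libraries of both cell types thus shared a range, and the lowest CBPi library of gMDSC was above the highest library of any other group. The gMDSC change was 2.89 ± 0.27, or 7.41-fold (edgeR adjusted p = 5.79e-05), and it stayed between 2.65 and 3.02 with any single library left out. Mx1 (chr16:97447035-97462906) was 41.6, 23.5, 43.6, 28.5 and 31.6 CPM in vehicle gMDSC and 56.1, 53.5, 59, 53.8 and 47.9 CPM in CBPi gMDSC. The groups were separate at a low level, and Mx1 rose by 0.72 ± 0.19 (edgeR adjusted p = 0.0284). The call was lost without vehicle gMDSC 2, 4 or 5 or CBPi gMDSC 6, 7 or 8, with adjusted p up to 0.0706. In mMDSC, Mx1 was 103, 120, 172, 149 and 159 CPM with vehicle and 206, 233, 164, 212 and 198 CPM under CBPi. CBPi mMDSC 8 overlapped the vehicle libraries, and the log2 fold change of 0.52 ± 0.15 missed the threshold (edgeR adjusted p = 0.0549), which it passed without vehicle mMDSC 3 (adjusted p = 0.0440) or CBPi mMDSC 8 (adjusted p = 0.0367). DESeq2, limma-voom and upper-quartile scaling also called Mx1 in mMDSC.

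Rsad2, which encodes viperin, and Cmpk2, a mitochondrial nucleotide kinase, are neighbours on chromosome 12 and rose together in gMDSC. Rsad2 (chr12:26442743-26456452) was 2984, 1398, 1394, 2014 and 1397 CPM in vehicle gMDSC and 7416, 6143, 3477, 3145 and 3627 CPM in CBPi gMDSC. CBPi gMDSC 6 and 7 were the highest and no library overlapped the other group, with a log2 fold change of 1.42 ± 0.29 (edgeR adjusted p = 0.00914). Cmpk2 rose by 1.24 ± 0.27 in gMDSC, from 340 to 766 CPM with vehicle to 740 to 1892 CPM under CBPi (edgeR adjusted p = 0.0144). In mMDSC their log2 fold changes were 0.36 ± 0.16 and 0.57 ± 0.22 (edgeR adjusted p = 0.214 and 0.135), and Cmpk2 was called there without CBPi mMDSC 8. Bst2, which encodes tetherin, a protein that holds budding virus at the membrane, went the other way in gMDSC. It was 384, 290, 629, 309 and 294 CPM with vehicle and 203, 213, 248, 260 and 226 CPM under CBPi. All CBPi libraries were below all vehicle libraries, but the log2 fold change of -0.69 ± 0.21 missed the threshold (edgeR adjusted p = 0.0587). Trim30a and Zbp1, a sensor of Z-form nucleic acid, were within 0.20 of 0 in both cell types.

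The 5 further induced genes passed the test in neither cell type. Their log2 fold changes ran from -0.02 to 0.18 in mMDSC and from -0.33 (Rtp4) to 0.45 (Parp14, a mono-ADP-ribosyltransferase) in gMDSC. Ifi44 varied little, with 855 to 969 CPM in vehicle mMDSC and 890 to 951 CPM in CBPi mMDSC. Intervals of these genes do not exclude small changes, since the SE was 0.08 to 0.19 in mMDSC and 0.19 to 0.27 in gMDSC.

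The difference between the CBPi responses of the cell types was tested as an interaction over all 20 libraries. Mx2 was the 1 member called, with a response larger in gMDSC by 2.00 ± 0.32 on the log2 scale, or 4-fold (edgeR adjusted p = 0.00339), and 0 members were called lower, as against 0.497% and 0.229% of 12688 genes. The Mx2 call held with each of the 20 libraries left out in turn (adjusted p up to 0.0101). By an unadjusted p under 0.05 (11.5% of all genes, both directions), 4 members were higher and 1 lower, and DESeq2 called 1 higher and 0 lower. The next estimates were Rsad2 at 1.01 ± 0.35 and Ifit2 at 0.94 ± 0.30 (edgeR adjusted p = 0.242 and 0.19), of which Ifit2 was called without vehicle gMDSC 1. Of the members, 9 were called in a single cell type by the main fit, some of them in both by alternatives. For these 9 the difference itself did not pass. Beside Rsad2, it was 0.62 ± 0.37 for Cmpk2, 0.13 ± 0.29 for Herc6, 0.41 ± 0.32 for Stat2, 0.40 ± 0.19 for Dhx58, 0.15 ± 0.24 for Mx1, -0.30 ± 0.24 for Oasl2, -0.02 ± 0.17 for Irf9 and 0.09 ± 0.18 for Irf7 (edgeR adjusted p at least 0.431). Usp18 differed by 0.15 ± 0.23, Ifit1 by 0.24 ± 0.30 and Isg15 by -0.47 ± 0.44. The median over members was 0.13, against -0.04 for all genes. These tests do not show that the responses were alike.

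gMDSC were next compared with mMDSC. With vehicle, 17 of 29 members were higher in gMDSC and 3 lower (Mx1, Ifi44 and Dhx58), where 13.6% and 8.08% of 11576 genes were. The median member log2 fold change was 0.73, against -0.06 for all genes. Of 68 tested interferon-stimulated genes outside the members, 21 were higher and 16 lower in gMDSC, with a median of 0.04. Ifit1 differed most among the members called higher, by 2.15 ± 0.22, or 4.42-fold (edgeR adjusted p = 1.77e-05), with every gMDSC library above every mMDSC library. Among the others, Oas2 differed by 1.73 ± 0.21 (edgeR adjusted p = 6.62e-05), Herc6 by 1.43 ± 0.21 (edgeR adjusted p = 0.000287) and Irf9 by 0.99 ± 0.12 (edgeR adjusted p = 8.39e-05). The groups of these 3 did not overlap either. Mx1 was 4.13-fold lower in gMDSC (log2 fold change -2.05 ± 0.21, edgeR adjusted p = 1.72e-05), at 23.5 to 43.6 CPM against 103 to 172 CPM. Ifi44, an inducible protein of little known function, was 376, 325, 201, 347 and 418 CPM in vehicle gMDSC and 855, 968, 892, 962 and 969 CPM in vehicle mMDSC. The groups were far apart, with a log2 fold change of -1.46 ± 0.18 (edgeR adjusted p = 8.02e-05). The calls of Ddx58 (0.73 ± 0.22, edgeR adjusted p = 0.0276) and Oas3 (0.80 ± 0.23, edgeR adjusted p = 0.0248) depended on single libraries. Ddx58 failed without vehicle mMDSC 1, 2, 3 or 4 or vehicle gMDSC 1, 2 or 4 (adjusted p up to 0.0885), and Oas3 failed without the same libraries except vehicle mMDSC 1 (adjusted p up to 0.0698).

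Under CBPi, 20 of 29 members were higher in gMDSC and 3 lower, where 20.1% and 19.1% of 11895 genes were. Outside the members, 32 of 69 tested interferon-stimulated genes were higher and 18 lower, with a median of 0.35, against -0.05 for all genes. All 17 members called higher with vehicle were among the 20, and Ifit2, Mx2 and Stat2 were the other 3. Their differences were 0.92 ± 0.17, 1.89 ± 0.23 and 0.77 ± 0.22 (edgeR adjusted p = 0.000811, 3.7e-05 and 0.0139), where with vehicle they had been -0.06, -0.16 and 0.32. Rsad2 (2.30 ± 0.24, edgeR adjusted p = 7.42e-06), Oas2 (2.09 ± 0.22, edgeR adjusted p = 1e-05), Herc6 (1.60 ± 0.18, edgeR adjusted p = 1.82e-05) and Ifit1 (2.43 ± 0.19, edgeR adjusted p = 7.49e-07) were higher in all gMDSC libraries. Mx1 (-1.85 ± 0.12, edgeR adjusted p = 1.66e-07) and Ifi44 (-1.41 ± 0.12, edgeR adjusted p = 1.02e-06) were again lower, joined by Bst2 (-0.81 ± 0.13, edgeR adjusted p = 0.00037). Irf7, Oas1a, Zbp1, Ifi35 and Xaf1 were called in neither comparison of the cell types. These comparisons share their libraries with those of CBPi against vehicle, so the values are given side by side only. Of the neutrophil markers, 9 of 14 tested were higher in gMDSC with vehicle, and 11 of 15 were higher and 2 lower under CBPi. The marker sums given above also differ between the gates, and their part in these differences was not tested.

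**Figure D4:**
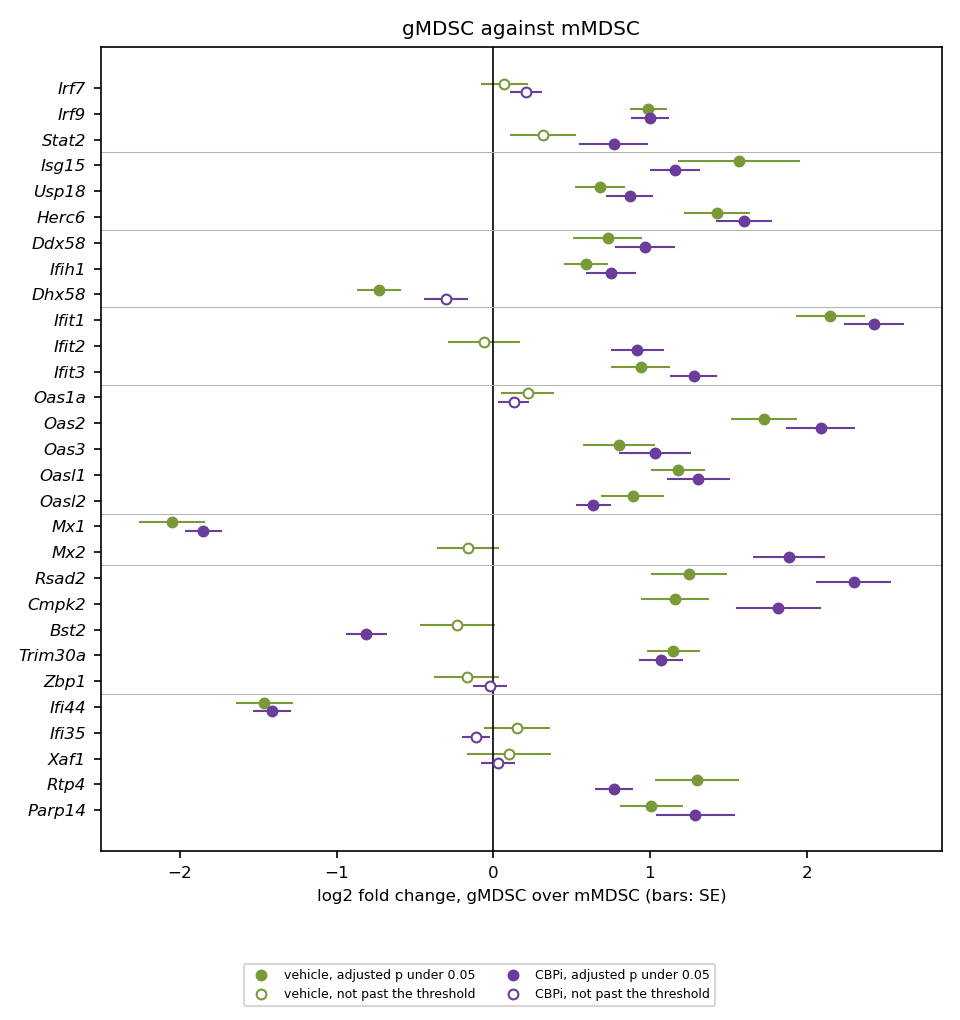
log2 fold change of gMDSC over mMDSC (x axis, bars SE) for the 29 members (y axis) with vehicle and under CBPi, with filled points for adjusted p under 0.05. Ifit1 lies farthest right, at 2.15 with vehicle and 2.43 under CBPi, Mx1 and Ifi44 lie left of 0 in both, and Mx2 is near 0 with vehicle and at 1.89 under CBPi.

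Upstream of the members, transcripts of the interferons themselves were found mainly in mMDSC. Ifnb1, the interferon-beta gene, was 61.6, 83.3, 82.2, 161 and 50.1 CPM in vehicle mMDSC and 10.4, 10.9, 10.8, 16.3 and 6.22 CPM in vehicle gMDSC. Every gMDSC library was below every mMDSC library, and the log2 fold change of Ifnb1 was -3.01 ± 0.35 (edgeR adjusted p = 4.81e-05). Of 18 type I interferon genes, 6 were tested with vehicle and 6 were lower in gMDSC, and 8 were tested under CBPi and 8 were lower. A gene could pass the filter there through its mMDSC level alone, so these counts are given as a description. The interferon-alpha genes are close paralogues whose counts are uncertain; Ifna4 averaged 79.5 CPM in vehicle mMDSC and 1.06 CPM in vehicle gMDSC. CBPi left Ifnb1 at -0.43 ± 0.32 in mMDSC and -0.38 ± 0.40 in gMDSC (edgeR adjusted p = 0.473 and 0.588), and edgeR and DESeq2 called 0 of the 10 interferon genes tested in mMDSC, where 2 had an unadjusted p under 0.05, both higher. The median log2 fold change of these 10 was 0.80, against 0.01 for all genes. A gene could pass the filter here through its CBPi level alone, so this median and the gMDSC count that follows are given as a description. In gMDSC 1 of 3 was called, Ifna4 (2.34 ± 0.64, edgeR adjusted p = 0.0383), from a mean of 1.06 to 5.18 CPM. That call was lost without vehicle gMDSC 1, 2 or 5 or any CBPi gMDSC library (adjusted p up to 0.0939).

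Of the receptor and its kinases, Ifnar2, the high-affinity receptor chain, fell in mMDSC under CBPi, from 410, 458, 509, 516 and 392 CPM to 354, 305, 333, 293 and 294 CPM. The groups were separate, and the log2 fold change was -0.54 ± 0.11 (edgeR adjusted p = 0.00712). In gMDSC it was -0.35 ± 0.14 (edgeR adjusted p = 0.127). Ifnar1, the other receptor chain, did not pass (-0.10 ± 0.21 in mMDSC and 0.22 ± 0.21 in gMDSC). Jak1 was higher in gMDSC, by 0.85 ± 0.13 with vehicle (edgeR adjusted p = 0.000427). Of the 6 brakes on the receptor, Ptpn6, the phosphatase SHP-1, fell in both cell types under CBPi, by 0.78 on the log2 scale in mMDSC and 1.00 in gMDSC (edgeR adjusted p = 0.000401 and 0.000646), and edgeR called 0 higher. By an unadjusted p under 0.05, 3 brakes were higher in mMDSC and 1 in gMDSC, and DESeq2 called 1 and 0. These 6 do not include Usp18, the member described above as restraining the receptor. Usp18 was called higher in both cell types (0.64 ± 0.11 in mMDSC and 0.85 ± 0.20 in gMDSC, edgeR adjusted p = 0.0025 and 0.0184). Of the 15 sensors and adaptors that lead to interferon production, 4 fell in mMDSC (Sting1, Myd88, Tlr7 and Tlr9) and 3 in gMDSC (Sting1, Myd88 and Irak4). Neither edgeR nor DESeq2 called any higher (0 in both cell types), and by an unadjusted p under 0.05, 1 was higher in mMDSC and 0 in gMDSC. Sting1, the adaptor of cytosolic DNA sensing, was 253, 247, 215, 285 and 217 CPM in vehicle mMDSC and 113, 133, 151, 128 and 132 CPM in CBPi mMDSC. The groups were far apart, with a change of -0.90 ± 0.11 (edgeR adjusted p = 0.000431), and in gMDSC Sting1 changed by -1.02 ± 0.19 (edgeR adjusted p = 0.00598). The Myd88 call in mMDSC was lost without vehicle mMDSC 2, 3 or 5 or CBPi mMDSC 8, 9 or 10 (edgeR adjusted p up to 0.0728). In gMDSC it was lost without vehicle gMDSC 1, 2 or 4 or CBPi gMDSC 7, 8, 9 or 10 (up to 0.101), and that of Irak4 without any library but vehicle gMDSC 3 (up to 0.0883). Of the other 7 interferon regulatory factors, 2 fell in mMDSC, Irf5 and Irf8 (-0.62 ± 0.12 and -0.50 ± 0.10, edgeR adjusted p = 0.00704 and 0.00868), and 1 of 6 tested fell in gMDSC, Irf8 (-0.57 ± 0.17, edgeR adjusted p = 0.0497), a call lost without any library but CBPi gMDSC 8 (up to 0.122). Irf1 was at 0.14 ± 0.11 and 0.00 ± 0.22. Over all genes tested, 5.54% were called lower and 3.02% higher under CBPi in mMDSC, and 5.52% and 4.18% in gMDSC. The lists here are short, so their counts are given as a description.

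The width over which a gene was counted moved with the results of some members. The 5 shortest members (Isg15, Bst2, Rtp4, Ifi35 and Xaf1, 486 to 1016 bases) averaged 0.57 above their group median, in log2 CPM, in vehicle mMDSC 4 and 0.71 above it in vehicle gMDSC 3. The 5 longest (Stat2, Herc6, Ifih1, Oas3 and Parp14, 2851 to 5541 bases) averaged -0.21 and -0.32 in the same libraries. With all genes split into 4 equal classes by width, the shortest class had a median deviation of 0.26 and 0.33 there, and vehicle gMDSC 3 also had the lowest share of its library total, as implied by the RPKM values, in gene counts (50.25%). In the gMDSC comparison of CBPi with vehicle the median log2 fold change was -0.33 for the shortest class of genes and 0.23 for the longest; it was -0.33 for the 5 shortest members and 0.47 for the 5 longest. With a smooth adjustment for width in each library, added after the data were seen, these member medians became -0.07 and 0.19. Under that adjustment 8 members stayed called in gMDSC, Dhx58, Ifit1 and Mx1 were not (edgeR adjusted p = 0.118, 0.0571 and 0.126), Bst2 stood at -0.32 and Isg15 at 0.07. In mMDSC 11 members were called, without Herc6 and with Ddx58 and Stat2 (edgeR adjusted p = 0.0276 and 0.0287). Mx2 in gMDSC was 2.68 with the adjustment and 2.89 without. Why width moved with these libraries was not tested.

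**Figure D5:**
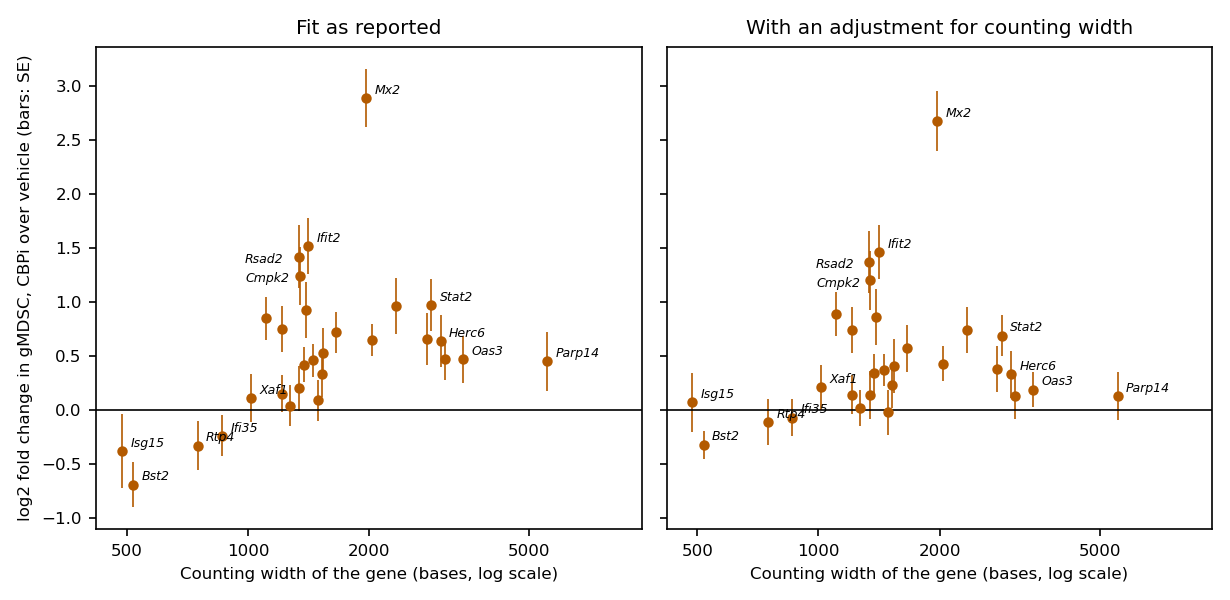
Counting width in bases (x axis, log scale) against the log2 fold change of CBPi over vehicle in gMDSC (y axis, bars SE) for the 29 members, without (left) and with (right) an adjustment for width. Bst2 and Isg15, the shortest members, move from -0.69 and -0.38 to -0.32 and 0.07, while Mx2 goes from 2.89 to 2.68.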

How the data were processed

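Poly-A RNA of sorted tumour myeloid cells was sequenced in 20 libraries made with the TruSeq V2 kit, and each library had a file of 23090 genes. The deposited counts are whole, unscaled read numbers for each gene. Per the submitters' processing notes, GSNAP and GRCm38 were used; the counter, its annotation and whether it read the strand were not given in the sources used here. Levels of different genes were compared on the authors' own RPKM column. Entrez IDs were matched to RefSeq symbols of GRCm38.p6 (21647 matched, 1443 did not), which also gave coordinates. Groups followed the sample titles. The main test was the quasi-likelihood test of edgeR 4.0.16 (R 4.3.3) with TMM scaling and filterByExpr (minimum count 10, minimum total 15), fitted to the groups compared, with Benjamini-Hochberg adjustment over all genes tested and a threshold of 0.05. The SE is the log2 fold change divided by the square root of F. Alternatives were RLE and upper-quartile scaling, no filter, DESeq2 1.42.0, limma-voom (limma 3.58.1), 1 fit of all libraries, a replicate block and each library left out; 2 on counting width were added after the data were seen. Scripts were tested on simulated data. No 2 replicates of a group agreed within sampling noise (the lowest chi-square was 21.6 per degree of freedom). The members, gene lists and tests were chosen with earlier results of these data known. Values by library are given, in each comparison, for up to 6 called members (the smallest p, at most 1 per role group) and for Stat2, Irf9, Irf7, Isg15, Usp18, Ifit1, Mx1 and Oasl2; other pathway genes are a fixed set and the smallest p of each list. Cmpk2, Herc6, Bst2, Oas2, Ifit3, the helicases and the remaining examples outside that rule were named after their values were seen. One gene of the pathway is not reported here.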

Additional observations from a re-analysis of the deposited data

Results flagged for a closer look

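Mx2 differed in its CBPi response between the cell types by the test of the difference itself, by 2.00 on the log2 scale, larger in gMDSC. A library stood far from the other 4 of its group in 6 of 116 groups of 5 (29 members in 4 groups), where chance gives about 1 in 20. These were Usp18 at 695 CPM in CBPi mMDSC 8, Herc6 at 512 CPM in CBPi mMDSC 7, Ifit3 at 198 CPM in vehicle mMDSC 1 and at 279 CPM in CBPi mMDSC 8, Bst2 at 629 CPM in vehicle gMDSC 3 and Zbp1 at 747 CPM in vehicle mMDSC 4.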

How the results depend on the processing

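Of 831 alternative values for 42 named results, 767 kept direction and side of the threshold, 32 lost it, 9 gained it and 23 changed sign. These 42 were set by fixed names and smallest p. They leave out the CBPi results of Ifit3, Oas2 and Herc6, whose calls were lost without any of several single libraries. Members called higher under CBPi in mMDSC numbered 10, 3 with all 20 libraries in 1 fit, and 6 to 13 with single libraries left out; the cause was not tested. In gMDSC they numbered 11, 14 with all 20 libraries in 1 fit, 13 by DESeq2, 8 with the width adjustment, and 4 to 11 with single libraries left out, which by construction leaves fewer samples. Members called lower in gMDSC were 0, and 1 by DESeq2 and 1 with all 20 libraries in 1 fit. In the interaction 1 was called higher, with 1 to 2 when single libraries were left out (Ifit2 was added without vehicle gMDSC 1). The sign changes were in Isg15 and Irf9. Isg15 under CBPi in mMDSC, 0.02, ran from -0.08 to 0.29 with single libraries left out, and in gMDSC it went from -0.38 to 0.07 with the width adjustment. The Irf9 interaction was 0.00 with RLE scaling, 0.00 by DESeq2, 0.05 without vehicle mMDSC 4 and vehicle gMDSC 3, and -0.11 to 0.08 with single libraries left out. The median interaction over the members, 0.13, ran from 0.04 to 0.25. Over all genes, CBPi in mMDSC called 360 higher (165 to 678 over the alternatives other than left-out libraries) and 660 lower (474 to 969); in gMDSC 489 (438 to 872) and 646 (539 to 1310); the interaction 63 (33 to 184) and 29 (17 to 93); and gMDSC against mMDSC with vehicle 935 lower (696 to 1519). With single libraries left out these 7 counts ran, in the same order, over 221 to 448, 473 to 695, 229 to 658, 358 to 736, 23 to 85, 10 to 32 and 676 to 1521. Library numbers recur across cell types, but deviations of same-numbered libraries correlated at -0.06 to 0.24, with 2 of 10 pairs over 0.1 and 3 of 10 libraries most like their own number, so the numbers were not used to pair libraries; whether same-numbered libraries share a mouse is not known. With the replicate block, members called higher in gMDSC with vehicle were 15 in place of 17 (Ddx58 and Oas3 were lost), under CBPi 20, and in the interaction 1. Depth and 5 libraries a group limit small changes: a missed threshold does not show equal levels.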

Other observations

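Of 72 interferon-stimulated genes outside the 29 members, 69 were tested in mMDSC, with 6 higher and 4 lower, and 68 in gMDSC, with 9 higher and 2 lower (edgeR adjusted p under 0.05). Over all genes 3.02% were higher and 5.54% lower in mMDSC, and 4.18% and 5.52% in gMDSC, so the share of the list that was lower was near or below that of all genes. The list's medians were 0.14 and 0.39, against 0.01 and 0.00 for all genes. Ifi209, an interferon-inducible gene of the PYHIN family, rose in gMDSC from a mean of 27.7 to 94.3 CPM, by 1.81 ± 0.18 (edgeR adjusted p = 9.37e-05). In mMDSC it was called at 0.44 ± 0.12 (edgeR adjusted p = 0.0433), a call lost without any library but vehicle mMDSC 4 (adjusted p up to 0.105). Its response was larger in gMDSC by 1.31 ± 0.21 (edgeR adjusted p = 0.00339). Its relative Ifi205 rose in gMDSC by 1.33 ± 0.21 (edgeR adjusted p = 0.0023) and was at 0.12 ± 0.16 in mMDSC, with a difference between cell types of 1.16 ± 0.25 (edgeR adjusted p = 0.0354), lost without CBPi gMDSC 7 or 8 or vehicle gMDSC 2 or 5 (up to 0.0646). These PYHIN genes are close paralogues, so their counts are uncertain. Ddx60, a helicase, rose by 0.79 ± 0.14 in mMDSC (edgeR adjusted p = 0.00456) and by 1.03 ± 0.26 in gMDSC (edgeR adjusted p = 0.0249; up to 0.0733 without CBPi gMDSC 6 or 7 or vehicle gMDSC 2 or 4). Calhm6 fell in mMDSC, from 187 ± 40.8 to 93.2 ± 20.3 CPM (SD, n = 5; log2 fold change -1.02 ± 0.17, edgeR adjusted p = 0.00306). Cxcl10, a chemokine induced by both interferon types, did not pass in either cell type (0.33 ± 0.22 and 0.32 ± 0.26).

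Genes classically induced by interferon-gamma were mostly lower where they were called, against the shares over all genes given above. Of 24 tested in each cell type, 1 was higher and 7 lower under CBPi in mMDSC, and 0 were higher and 7 lower in gMDSC by edgeR, where DESeq2 called 1 higher and 2 were higher by an unadjusted p under 0.05. The medians were -0.19 and -0.28, against 0.01 and 0.00 for all genes. The genes that fell included MHC class II and its activator. The log2 fold change of H2-Aa was -1.53 ± 0.27 in mMDSC and -2.99 ± 0.22 in gMDSC (edgeR adjusted p = 0.0034 and 8.18e-06). That of Ciita, which switches on class II genes, was -2.29 ± 0.24 and -3.21 ± 0.32 (edgeR adjusted p = 9.29e-05 and 9.37e-05). Both were among the 7 lower genes of each cell type, as were H2-Ab1 and H2-Eb1. Most of the list was called in neither direction, Irgm2 (0.09 in mMDSC and -0.10 in gMDSC) and Gbp2b (-0.43 and -0.27) among them. Macrophage and monocyte markers were also lower under CBPi in part, and their part in these values was not tested.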
